A study of Mus musculus with 24 samples.

Results

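Immediate early genes are transcribed within minutes of a stimulus, without the need for new protein, and several of them are also induced when a peripheral nerve or its neurons are injured. The set described here has 10 genes of this kind, Fos, Fosb, Fosl2, Junb, Jund, Egr1, Ier2, Dusp1, Atf3 and Nr4a1, out of 37074 gene names on a mouse microarray with 56605 gene probes. They were chosen by name, as all gene probes whose gene name in the scanner files is 1 of the 10, and each gene was read from its probe with the highest mean over all arrays. The 10 genes had 16 probes, and the 10 probes used were well above background on all 24 arrays. The samples came from C57BL/6 mice and were of 2 kinds at spinal segments L4 to L6, the efferent fibres, which leave through the ventral root (EN), and the afferent fibres, which enter through the dorsal root (AN). Roots were taken on the day of birth (P0) and at 1, 3 and 5 weeks of age (written 1 W, 3 W and 5 W), which gave 8 groups of 3 arrays. All mice were unoperated, so no group was a nerve injury, and P0 served as the reference for development. Fibres of several mice of both sexes were collected together, and the sources used here do not tie an array to an animal, so that the p values measure the spread between arrays, part of which may be technical. In whole roots, fewer cells of a type and less RNA per cell cannot be told apart.

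Fos, Fosb and Fosl2 belong to the Fos family and Junb and Jund to the Jun family. Proteins of both families pair to form the AP-1 transcription factor, and Atf3, a stress-induced factor of the same leucine zipper type, can join them and is widely used as a marker of injured neurons. Egr1 is a zinc finger transcription factor, Nr4a1 an orphan nuclear receptor, Ier2 a small nuclear immediate early protein, and Dusp1 a phosphatase that switches off MAP kinases. Transcription of many of these genes is switched on by serum response factor and by the CREB family, which binds the cAMP response element TGACGTCA and its shorter form TGACG. Jund stands apart in most tissues because it is made at a steady level.

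The bases just before the gene start carry such elements in part of the set, and the sequences of 6 members are shown because, among the members with a promoter sequence, Fosb, Junb and Dusp1 had the highest correlations with Fos from array to array and Fosl2 and Nr4a1 the lowest. RefSeq (GRCm38.p6) gave a promoter for 8 of the 10 genes, and Egr1 and Ier2 were not among them. Each line below is the 150 bases before the start of the gene, 5′ to 3′ on the strand of the gene, and capitals mark TGACG or its reverse complement CGTCA. Fos lies on the plus strand at chr12:85473740-85473889, Fosb on the minus strand at chr7:19310046-19310195, Junb on the minus strand at chr8:84978749-84978898, Dusp1 on the minus strand at chr17:26508473-26508622, Fosl2 on the plus strand at chr5:32136322-32136471 and Nr4a1 on the plus strand at chr15:101266696-101266845.
Fos: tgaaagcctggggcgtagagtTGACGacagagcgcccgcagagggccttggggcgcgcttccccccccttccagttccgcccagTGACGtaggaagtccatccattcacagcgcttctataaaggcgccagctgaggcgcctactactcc
Fosb: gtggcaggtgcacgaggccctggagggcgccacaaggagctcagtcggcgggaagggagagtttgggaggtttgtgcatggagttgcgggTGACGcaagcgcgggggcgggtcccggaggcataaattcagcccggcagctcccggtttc
Junb: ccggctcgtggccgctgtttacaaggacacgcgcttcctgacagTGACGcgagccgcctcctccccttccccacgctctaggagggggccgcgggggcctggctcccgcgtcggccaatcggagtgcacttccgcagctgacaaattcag
Dusp1: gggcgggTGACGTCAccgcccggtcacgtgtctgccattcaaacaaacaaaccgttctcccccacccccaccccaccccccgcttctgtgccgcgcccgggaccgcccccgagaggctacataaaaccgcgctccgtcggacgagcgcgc
Fosl2: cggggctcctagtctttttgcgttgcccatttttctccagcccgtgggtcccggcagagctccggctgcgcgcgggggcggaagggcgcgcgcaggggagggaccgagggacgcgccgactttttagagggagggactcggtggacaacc
Nr4a1: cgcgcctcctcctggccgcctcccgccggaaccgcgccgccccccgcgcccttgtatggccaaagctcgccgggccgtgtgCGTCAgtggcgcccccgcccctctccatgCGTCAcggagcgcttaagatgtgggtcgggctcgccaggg
In the 250 bases before the start, TGACG was found on either strand in 6 of the 8 members, Fos, Fosb, Junb, Dusp1, Atf3 and Nr4a1, and in 17.8% of 32851 RefSeq promoters of the same length. Fosl2 and Jund had no match in this window. Nr4a1 had 4 matches, which start 233, 213, 69 and 40 bases before the gene start, and Fos had 2, at 129 and 66. The full element TGACGTCA, whose letters include both TGACG and CGTCA, was present in Dusp1 alone, 143 bases before the start, against 1.55% of all promoters. The AP-1 site TGANTCA (6.75% of promoters) and the CArG box bound by serum response factor (1.47%) were found in none of the 8 within these 250 bases. Sites farther upstream were not searched, so a gene without a match here may still have one. Of the members with a match, Fosb, Junb and Dusp1 had correlations with Fos of 0.96, 0.88 and 0.74. Those of Atf3 (1 match, 7 bases before the start) and Nr4a1 were 0.35 and -0.03. Without a match, Jund had 0.57 and Fosl2 0.25. A relation between matches and likeness to Fos was not tested. A match is a description of the letters in this window and not evidence of binding.

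Values are log2 signals that the authors had quantile normalized, so that each of the 24 arrays has the same median of 6.31, and an interval of 1 is a 2-fold difference. A gene was called where limma gave an adjusted p below 0.05 (Benjamini and Hochberg over all 36409 tested probes) and a fold change above 2. All 8 Schwann cell markers were above background on all arrays of every group, with a summed level of 18.92 to 20.18 (log2). The 8 sensory neuron markers, among them advillin, were high in both roots at P0 (16.37 to 16.83 in EN and 16.28 to 17.74 in AN), lower in EN from 1 W on (14.48 to 14.91) and uneven in AN at 3 W (14.70 to 18.97, the highest on replicate 3) and at 5 W (14.24 to 16.30). Skeletal muscle markers were uneven as well, at 13.92 to 17.05 in AN at 3 W and 12.28 to 16.66 in AN at 5 W. AN replicate 3 at 3 W had the lowest array quality weight of all 24 (0.216).

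Fos, the founding member of its family, was the most variable gene of the set. In EN it read 10.57, 10.33 and 9.79 at P0, 11.37, 10.96 and 10.19 at 1 W, 9.44, 10.78 and 10.88 at 3 W, and 13.61, 9.11 and 11.54 at 5 W (replicates 1, 2 and 3). In AN it read 10.74, 9.96 and 9.88 at P0, 12.92, 13.71 and 10.18 at 1 W, 10.87, 12.96 and 11.19 at 3 W, and 12.08, 9.90 and 12.16 at 5 W. Within EN at 5 W the highest and lowest array thus differed 22.5-fold, and within AN at 1 W 11.6-fold, while the P0 arrays of both roots lay close together. The highest group mean, 12.27 ± 1.85 (SD, n = 3) in AN at 1 W, was 4.21-fold above AN at P0, but the groups overlapped and the adjusted p was 0.139 by limma. Fos was called in no comparison. With 1 array left out, the difference from P0 ranged from 1.35 to 3.12 (log2) in AN at 1 W, the highest without AN replicate 3 (adjusted p = 0.0299), and from 0.09 to 2.34 in EN at 5 W, the highest without EN replicate 2 (adjusted p = 0.0424). With slide as a block the same differences were 1.24 (adjusted p = 0.196) and 0.18 (adjusted p = 0.859). Within slides, AN at 1 W differed from P0 by 2.18 on slide 1 and 0.25 on slide 3, and EN at 5 W by -0.95 on slide 3.

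Fosb, which pairs with Jun proteins like Fos, was highest on the same array of each root as Fos. In AN it read 7.24, 6.82 and 7.48 at P0, 9.84, 10.39 and 7.95 at 1 W, 7.94, 9.33 and 8.11 at 3 W, and 8.94, 7.12 and 9.10 at 5 W. In EN it read 7.49, 7.54 and 7.20 at P0, 8.04, 7.88 and 7.74 at 1 W, 7.67, 8.52 and 9.03 at 3 W, and 10.25, 7.64 and 8.64 at 5 W. All 3 AN arrays at 1 W lay above all 3 at P0, and Fosb rose 4.63-fold (log2 difference 2.21 ± 0.65 SE, adjusted p = 0.0204). The call was lost without AN replicate 1 (adjusted p = 0.0785) or replicate 2 (0.117) at 1 W, without AN replicate 2 at P0 (0.0651), and in a fit of the compared groups alone (0.0524). At 1 W Fosb was 2.83-fold higher in AN than in EN (adjusted p = 0.292), and with the AN and EN arrays of a number as a random block the adjusted p of that difference was 0.0325. The other Fosb probe was above background on 2 arrays and was not tested.

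Fosl2, the Fos family member with slower kinetics, rose after P0 in both roots. It read 9.32, 9.06 and 8.62 in EN at P0, 10.06, 10.03 and 9.83 at 1 W, 10.02, 10.42 and 10.73 at 3 W, and 9.76, 9.88 and 11.0 at 5 W. In AN it read 9.30, 8.99 and 9.17 at P0, 9.71, 9.82 and 9.46 at 1 W, 11.09, 11.21 and 11.43 at 3 W, and 10.49, 10.80 and 11.34 at 5 W. In both roots every array at 3 W and 5 W was above every P0 array. Such a lack of overlap with P0, in either direction, held for 71.3% and 58.8% of all tested probes in EN and 58.1% and 53.3% in AN. Fosl2 rose 4.26-fold in AN by 3 W (log2 2.09 ± 0.28 SE, adjusted p = 6.33e-06) and 2.63-fold in EN (1.40 ± 0.28, adjusted p = 0.000392), and at 5 W it was still 3.30-fold above P0 in AN (adjusted p = 4.56e-05) and 2.32-fold in EN (adjusted p = 0.00123). In AN the step from 1 W to 3 W was 3.00-fold (adjusted p = 0.000405). The AN-EN difference at 3 W was 0.85 (95% interval 0.26 to 1.44, adjusted p = 0.0825), with no overlap between the roots. All 3 W arrays shared 1 slide with replicate 3 of 5 W, and with slide as a block the difference from P0 at 3 W was 1.20 in AN (adjusted p = 0.00315) and 0.51 in EN (adjusted p = 0.163), and the step from 1 W to 3 W in AN 0.72 (adjusted p = 0.0699). At 5 W the difference from P0 with slide as a block was 1.46 in AN (adjusted p = 2.95e-05) and 0.95 in EN (adjusted p = 0.00127). The EN value was also below the 2-fold limit with array weights (0.97) and without EN replicate 3 at 5 W (0.83). On the only slide that held both P0 and 5 W, the difference was 1.72 in AN and 1.05 in EN.

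Of the Jun partners, Junb was called in EN and not in AN on the probe used, though its AN arrays at 5 W also lay above those at P0. It read 11.32, 11.05 and 10.84 in EN at P0 and 13.19, 11.54 and 12.49 at 5 W, a 2.53-fold rise without overlap (log2 1.34 ± 0.37 SE, adjusted p = 0.00473). Its other tested probe was above background on 0 of 3 EN arrays at P0, 1 of 3 AN arrays at P0 and all 3 of each root at 5 W, so no fold change is given for it. That probe was called higher at 5 W in both roots (adjusted p = 0.000131 in EN and 0.017 in AN by limma), so the lack of a call in AN depends on the probe. On the probe used, the EN difference was 0.94 without EN replicate 1 at 5 W (adjusted p = 0.0387), below the 2-fold limit. With slide as a block it was 1.04, and on the slide that held both ages it was 0.59. In AN it read 11.34, 11.25 and 10.97 at P0 and 11.90, 11.51 and 12.53 at 5 W, also without overlap (0.79, adjusted p = 0.0786). Without AN replicate 2 at 5 W that difference was 1.03 (adjusted p = 0.0405 by limma). With slide as a block it was 0.50 (adjusted p = 0.279). The AN-EN difference of Junb at 5 W was -0.42 (adjusted p = 0.560), so no difference between the roots was called for it. Jund had the narrowest range, 13.55 to 14.42 over all 24 arrays. At 5 W it read 14.37, 14.13 and 14.34 in AN and 13.79, 13.55 and 13.82 in EN, so that every AN array was above every EN array (0.56 ± 0.15 SE, 1.47-fold, adjusted p = 0.0332), a difference below the 2-fold limit of a call. The change of that AN-EN difference from P0 to 5 W was 0.76 (95% interval 0.30 to 1.21, adjusted p = 0.114). The other Jund probe was also above background on all 24 arrays. On it the roots overlapped at 5 W, at 13.60 to 14.32 in AN and 13.30 to 13.94 in EN. The AN-EN difference on that probe was 0.41 (adjusted p = 0.249 by limma), so the separation depends on the probe.

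Egr1 and Ier2 varied widely between arrays of a group and were called in no comparison. Egr1 read 11.44, 11.42 and 9.76 in EN at P0 and 11.35, 11.69 and 10.21 in AN at P0, where replicate 3 was low in both roots. At 5 W it read 12.39, 11.05 and 11.46 in EN and 11.76, 9.98 and 11.52 in AN, where replicate 2 was the lowest in both. Ier2 read 9.72, 8.62 and 10.11 in EN at 5 W and 9.38, 8.30 and 10.37 in AN, again with replicate 2 the lowest and replicate 3 the highest in both. The lowest unadjusted p over all comparisons was 0.202 for Egr1 and 0.393 for Ier2. For Ier2 the slide changed this: with slide as a block it fell by 1.66 from P0 to 3 W in EN (adjusted p = 0.00624) and by 1.63 in AN (adjusted p = 0.00746), against -0.081 and -0.043 without it, and from P0 to 5 W in AN it fell by 1.13 (adjusted p = 0.0082). P0 and 3 W shared no slide, so that the values at 3 W rest on slides linked through other ages. The other tested Ier2 probe was above background on 20 arrays and differed from P0 in the other direction. Without the block its difference at 3 W was 0.67 in EN and 0.95 in AN (adjusted p = 0.473 and 0.311 by limma). The fall of Ier2 is thus given for 1 probe and 1 setting.

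Dusp1 in both roots and Nr4a1 in EN rose between 1 W and 3 W. Dusp1 read 10.91, 11.20 and 10.57 in EN at P0, 10.13, 10.33 and 10.16 at 1 W, 10.98, 11.48 and 11.72 at 3 W, and 12.05, 11.21 and 12.22 at 5 W. In AN it read 10.79, 11.17 and 10.94 at P0, 10.22, 10.59 and 9.71 at 1 W, 10.77, 11.46 and 11.54 at 3 W, and 11.47, 11.12 and 11.88 at 5 W. In both roots the 1 W arrays were below all others of that root. From 1 W to 3 W Dusp1 rose 2.27-fold in EN (adjusted p = 0.00564) and 2.13-fold in AN (adjusted p = 0.00897). Nr4a1, which dampens inflammation in macrophages among other roles, read 14.70, 14.62 and 15.01 in EN at P0, 13.81, 14.35 and 14.04 at 1 W, 15.08, 15.19 and 15.44 at 3 W, and 15.00, 15.20 and 15.26 at 5 W. It was 1.63-fold lower at 1 W than at P0 in EN (adjusted p = 0.025) and rose 2.24-fold from 1 W to 3 W (adjusted p = 0.000886). In AN at 1 W it read 14.69, 14.69 and 14.70, above all EN arrays of that age (0.62, adjusted p = 0.162). With slide as a block, the steps from 1 W to 3 W were 0.53 and 0.43 for Dusp1 in EN and AN and 0.68 for Nr4a1 in EN (adjusted p = 0.317, 0.397 and 0.141). The 1 W and 3 W arrays shared no slide, so that no value within a slide can be given. Dusp1 in AN was also below the 2-fold limit without AN replicate 3 at 1 W (0.86), or replicate 2 (0.99) or 3 (0.95) at 3 W.

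Atf3 was the gene with a called difference between the roots. In EN it read 7.93, 8.16 and 7.80 at P0, 9.27, 9.20 and 9.16 at 1 W, 8.12, 8.23 and 8.63 at 3 W, and 8.48, 8.10 and 8.92 at 5 W. In AN it read 8.04, 8.50 and 8.46 at P0, 8.93, 9.15 and 9.06 at 1 W, 9.41, 9.43 and 9.06 at 3 W, and 9.96, 9.40 and 9.38 at 5 W. EN thus peaked at 1 W, 2.38-fold above P0 (adjusted p = 0.00023), and was 1.85-fold lower again at 3 W (adjusted p = 0.00369), whereas in AN the group mean was higher at each later age and 2.36-fold above P0 at 5 W (adjusted p = 5.35e-05). AN was 1.96-fold above EN at 3 W (0.97 ± 0.20 SE, adjusted p = 0.00822) and 2.11-fold at 5 W (1.08 ± 0.20, adjusted p = 0.00302), with no overlap at either age (as for 32.7% and 20.1% of all tested probes). At 1 W the difference was -0.16. The change of the AN-EN difference from P0 to 5 W, 0.70 (95% interval 0.10 to 1.31), was not past the threshold (adjusted p = 0.348). Within slides, AN exceeded EN at 5 W by 1.47, 1.30 and 0.46 on the 3 slides that held this age. Without AN replicate 1 or EN replicate 2 at 5 W the difference was 0.89 and 0.88 (adjusted p = 0.0191 and 0.0212), and in a fit of these 6 arrays alone the adjusted p was 0.204. Sensory neuron markers summed to 14.24 to 16.30 in AN at 5 W and 14.62 to 14.91 in EN, macrophage markers to 15.00 to 15.38 and 15.47 to 15.86, and oligodendrocyte and astrocyte markers to 14.55 to 14.97 and 14.16 to 14.65. Of the 6 oligodendrocyte and astrocyte markers, 3 were called higher in AN at 5 W and none at 3 W, with a median AN-EN difference of 1.61 and 0.85, and their mean level per array was 9.49 to 10.86 in AN and 8.70 to 8.99 in EN at 5 W. The median difference of the 8 sensory neuron markers was 1.49 at 5 W and 3.53 at 3 W, and that of the 6 macrophage markers -0.48 and -0.36. Their part in the Atf3 difference was not tested.

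**Figure D1:**
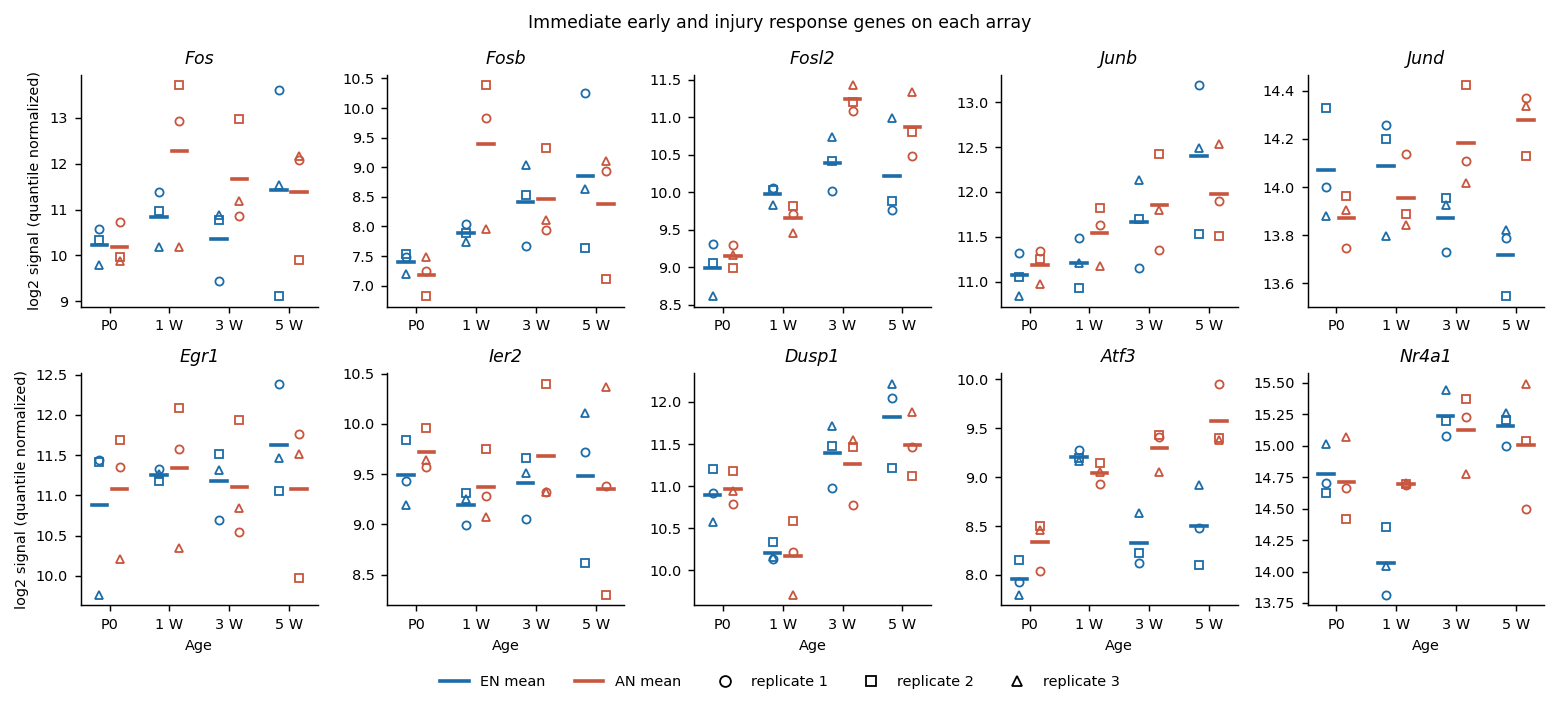
Log2 signal (quantile normalized) of the 10 genes on each of the 24 arrays against age, with EN in blue and AN in red, symbols for the replicate number and bars for the mean of 3 arrays. Each panel has its own scale. Fos spans 9.11 to 13.71 and Jund 13.55 to 14.42, and the 3 AN arrays of Atf3 lie above the 3 EN arrays at 3 W and at 5 W.

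The study asked how the roots differ at each age, and of these genes Atf3 alone was called. At P0 none of 10 was called by limma (0.327% of all tested probes) and none had an unadjusted p below 0.05 (7.34% of probes), the lowest adjusted p being 0.817. At 1 W (2.79% of probes) and at 3 W (3.11%) none was called either, while 2 genes at each age had an unadjusted p below 0.05 (13.7% and 19.4% of probes). At 5 W Atf3 was called, 1 of 10, against 3.31% of probes, and 3 had an unadjusted p below 0.05 (20.7%). The median AN-EN difference of the 10 genes was 0.10, 0.13, 0.24 and -0.14 at the 4 ages in order, and that of all tested probes 0.01, -0.06, -0.03 and -0.03. None of the changes of the AN-EN difference from P0 was called (0.0632%, 0.525% and 0.931% of probes at 1 W, 3 W and 5 W), with 1, 1 and 2 genes at an unadjusted p below 0.05 (7.06%, 9.18% and 10.8% of probes). The interval for Fos was wide, from -0.60 to 3.46 at 1 W, so that a difference of several fold could not have been detected, whereas for Nr4a1 at P0 it ran from -0.53 to 0.41.

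**Figure D2:**
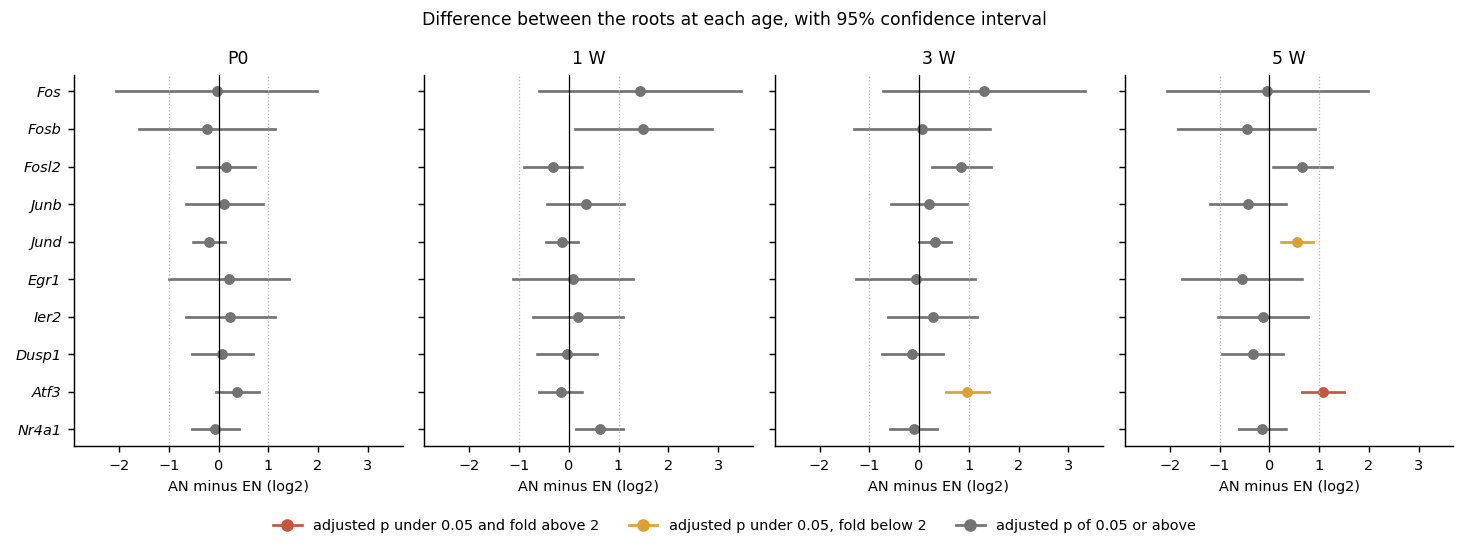
Difference in log2 signal, AN minus EN, for the 10 genes at each age, as the limma estimate with its 95% confidence interval (24 arrays, 3 per group). Dotted lines mark a 2-fold difference. Atf3 stands at 0.97 at 3 W and 1.08 at 5 W, and the intervals of Fos and Fosb are the widest.

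During development 6 of the 10 genes were called at least once over the 10 comparisons of ages in both roots, against 46.2% of all tested probes. Against P0, 1 of the 10 was called at 1 W in EN (11.9% of probes) and 1 in AN (8.58%), 1 at 3 W in EN (30.5%) and 1 in AN (27.8%), and 2 at 5 W in EN (29.9%) and 2 in AN (27.8%). All of these were rises, of Atf3 in EN and Fosb in AN at 1 W, of Fosl2 in both roots at 3 W and 5 W, of Junb in EN and Atf3 in AN at 5 W. From 1 W to 3 W 2 genes were called in EN (11.7%) and 2 in AN (12.6%), and from 3 W to 5 W none (1.12% and 1.68%), with none at an unadjusted p below 0.05 either (16.8% and 19.1% of probes). The EN and AN comparisons with P0 each share their P0 arrays, so the ages are not independent of each other. The median change from P0 was 0.84 in EN and 0.66 in AN at 5 W, against 0.04 and 0.03 over all tested probes. With slide as a block it was 0.35 in EN and 0.25 in AN, against 0.04 and 0.04. At 3 W the median of the 10 genes was 0.41 in EN and 0.54 in AN, and -0.13 and 0.04 with slide as a block.

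The spread between arrays of a group separated the genes. The pooled within-group SD was 1.26 for Fos, higher than for 99.3% of tested probes, 0.85 for Fosb (95.2%), 0.75 for Egr1 (92.6%), 0.55 for Ier2 (84.2%) and 0.47 for Junb (77.4%). It was 0.37 for Dusp1 (64.8%), 0.36 for Fosl2 (62.1%), 0.28 for Nr4a1 (46.7%), 0.25 for Atf3 (40.0%) and 0.18 for Jund (20.6%), and the median of all tested probes was 0.29. Differences between the 8 groups made up 10.6% of the variance of Egr1 and 11.7% of that of Ier2, but 87.3% for Atf3 and 86.5% for Fosl2. The median of all tested probes was 69.2%.

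**Figure D3:**
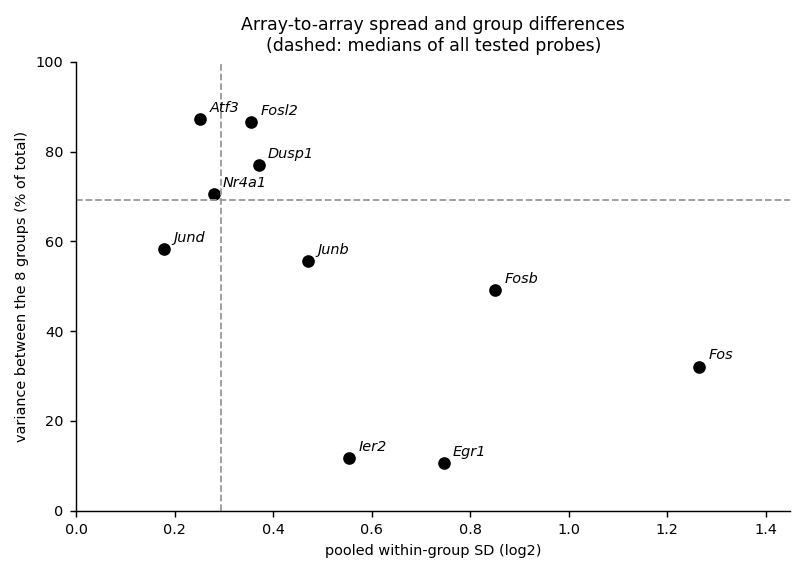
Share of the variance over 24 arrays that lies between the 8 groups (percent) against the pooled within-group SD (log2), 1 point per gene, with dashed lines at the medians of all tested probes (69.2% and 0.29). Fos, Fosb, Egr1, Ier2 and Junb lie to the lower right and Atf3, Fosl2, Dusp1 and Nr4a1 above the median share.

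Fos, Fosb, Junb and Egr1 deviated together. For each array the mean of its group was subtracted, and the deviations of Fos were compared with those of the 9 other genes over 24 arrays, with exact two-sided permutation tests in which the AN and EN arrays of an age and number, which lie on the same slide, were moved together (1296 permutations, smallest p 0.000772), adjusted over 9 tests. Slide was not held fixed in these tests. Pearson's r was 0.96 for Fosb (adjusted p = 0.00347, exact permutation test), 0.88 for Junb (0.00347) and 0.80 for Egr1 (0.00463), and Spearman's rho was 0.92, 0.86 and 0.82 (adjusted p = 0.00694 for each, exact permutation test). For Dusp1, Ier2 and Jund r was 0.74, 0.70 and 0.57 (adjusted p = 0.0583, 0.0625 and 0.0573, exact permutation test) and rho 0.63, 0.69 and 0.60 (adjusted p = 0.0903, 0.0556 and 0.0556, exact permutation test), which did not pass. Without the 2 arrays farthest from the median of Fos, r was 0.94 for Fosb, 0.86 for Junb, 0.79 for Egr1, 0.61 for Dusp1, 0.64 for Ier2 and 0.52 for Jund. For Atf3, Fosl2 and Nr4a1 r was 0.35, 0.25 and -0.03 (adjusted p = 0.342, 0.759 and 0.941, exact permutation test), rho 0.27, 0.31 and -0.03 (adjusted p = 0.368, 0.482 and 0.931, exact permutation test), and r without the 2 arrays 0.22, 0.10 and -0.0017. Within the roots r was 0.96 in EN and 0.96 in AN for Fosb and 0.92 and 0.84 for Junb (12 arrays each).

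**Figure D4:**
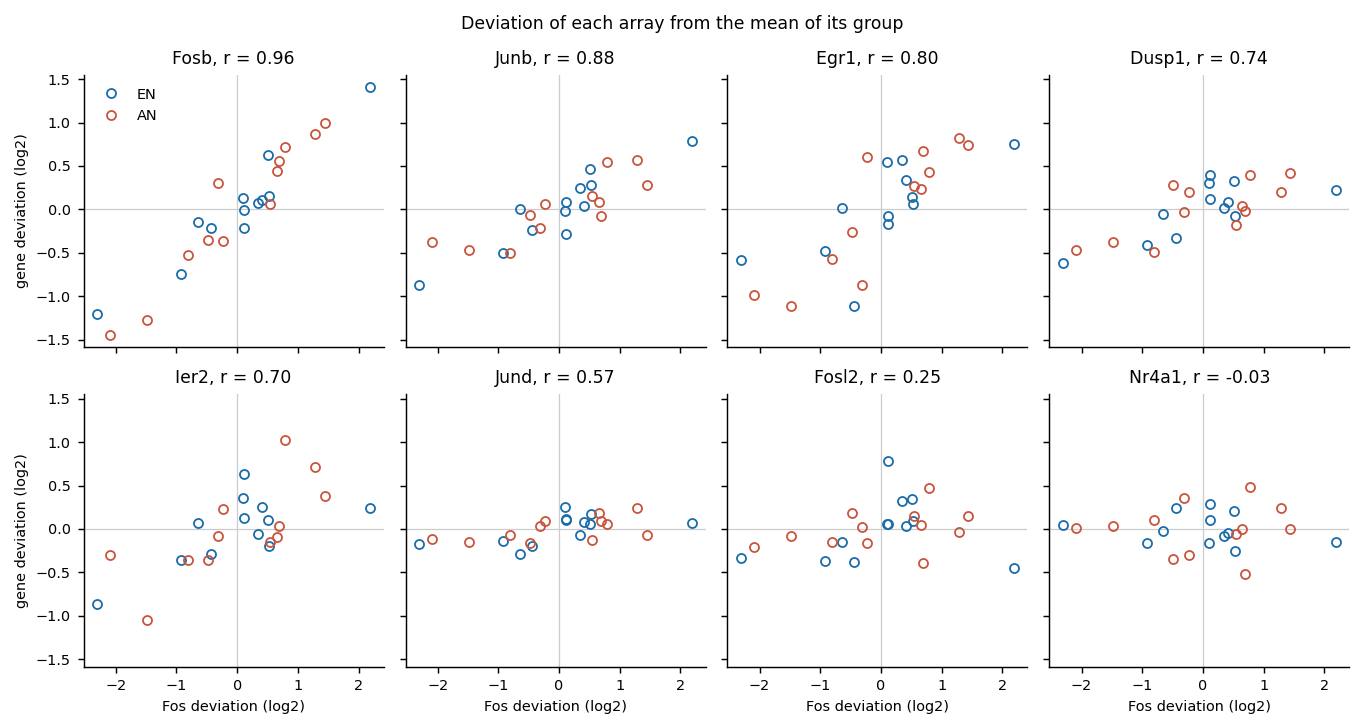
Deviation of 8 genes from the mean of their group (log2, y axis) against that of Fos (log2, x axis) on 24 arrays, EN in blue and AN in red, with Pearson's r over all arrays. Fosb and Junb follow Fos (0.96 and 0.88), and Nr4a1 does not (-0.03).

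The shared deviation moved with the slide. Fos lay below the mean of its group on 7 of the 8 arrays of slide 3, by 0.93 on average, and above it on all 4 arrays of slide 1 and all 4 of slide 2, by 0.52 and 1.11. Slide 3 held replicates 2 and 3 of P0, replicate 3 of 1 W and replicate 2 of 5 W of both roots. Over the 8 arrays of slide 3 r with Fos was 0.92 for Fosb, 0.85 for Junb and 0.54 for Egr1, and over the 8 of slide 4 it was 0.96, 0.94 and 0.97. Slides 1 and 2 held 4 arrays each, too few for a value. Except at 3 W, the group means subtracted here span several slides. A shift between slides can therefore enter these values, which by themselves cannot show a relation within a slide. With group and slide both fitted, the SD of Fos was 0.87 and r was 0.93 for Fosb, 0.90 for Junb, 0.64 for Egr1, 0.82 for Ier2, 0.71 for Dusp1 and 0.49 for Jund, given with no test. The array means of the marker lists had correlations with the deviations of Fos of -0.56 for fibroblasts, -0.45 for Schwann cells, -0.33 for endothelial cells, -0.19 for sensory neurons, -0.16 for oligodendrocytes and astrocytes, -0.10 for red blood cells, 0.06 for skeletal muscle, 0.44 for smooth muscle and pericytes and 0.50 for macrophages (24 arrays that share groups and slides), given as a description. Their part in the shared deviation was not tested.

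AN and EN arrays of the same age and number also tended to deviate the same way. Over the 12 pairs, r between AN and EN was 0.85 for Ier2, 0.84 for Fosl2, 0.75 for Dusp1, 0.70 for Egr1 and 0.64 for Fos, with the same sign in 10, 9, 9, 8 and 10 pairs. In exact two-sided permutation tests within ages, adjusted over 10 genes, p was 0.0489 for Dusp1, Egr1 and Fosl2, 0.0617 for Ier2 and 0.103 for Fos. Spearman's rho was 0.79, 0.75, 0.79, 0.60 and 0.62 in the same order, and none passed after adjustment (lowest p = 0.081, exact permutation test). Without the 2 pairs farthest from the AN median, r was 0.58, 0.63, 0.78, 0.76 and 0.43. For Atf3 the correlation was -0.23 and 3 of 12 pairs had the same sign (adjusted p = 0.657, exact permutation test). A slide held at most 4 of these pairs, too few for a value within slides, and both arrays of each pair lay on the same slide.

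Among related genes from lists chosen with the set, other immediate early genes moved in both directions. Of 31 tested, 10 rose and 3 fell from P0 to 5 W in EN, and 10 rose and 3 fell in AN, against 29.9% and 27.8% of all tested probes called in either direction. With slide as a block 7 rose and 4 fell in EN, and 8 rose and 4 fell in AN. Arc, a synaptic regulator of AMPA receptor trafficking, rose 17.9-fold in EN (log2 4.16, adjusted p = 2.76e-08) and by 2.73 in AN (adjusted p = 5.39e-06), and Nr4a2, a relative of Nr4a1, rose by 1.93 in EN and 2.85 in AN (adjusted p = 1.01e-07 and 6.17e-10). At P0 Arc was above background on 2 of 3 arrays of each root, so the size of its rise is uncertain. Ptgs2, the inducible cyclooxygenase, was also among the genes called higher. It was above background on 0 of 3 arrays of each root at P0 and on all 3 at 5 W, so no fold change is given for it. Egr3, a relative of Egr1, fell by 2.12 in EN and 1.93 in AN (adjusted p = 1.24e-05 and 3.8e-05). From P0 to 1 W fewer rose than fell, 2 against 5 in EN and 2 against 6 in AN. Of all tested probes 11.9% and 8.58% were called in either direction. With slide as a block the counts were 2 against 6 in both roots. Ctgf, a secreted matricellular protein, fell 3.05-fold in EN and 4.00-fold in AN (adjusted p = 0.000136 and 1.49e-05). From 1 W to 3 W 14 rose and 1 fell in EN, and 11 rose and 1 fell in AN (11.7% and 12.6% of all tested probes). These ages shared no slide, and with slide as a block 6 rose and 3 fell in EN, and 7 rose and 2 fell in AN (9.14% and 11.2%). Between the roots at 5 W, Arc (-1.39, adjusted p = 0.0275) and Plk3 (-1.20, adjusted p = 0.00251) were lower in AN, and none was higher.

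From P0 to 5 W the feedback genes related to Dusp1 fell or were not called. Of 13 dual specificity phosphatases, Sprouty and Spred genes, which restrain MAP kinase signalling, none rose and 7 fell from P0 to 5 W in EN, and none rose and 5 fell in AN (29.9% and 27.8% of all tested probes). Dusp4 fell by 2.67 in EN and 2.83 in AN (adjusted p = 4.16e-07 and 2.1e-07), Dusp10 by 2.24 and 1.97 (adjusted p = 2.17e-06 and 1.03e-05) and Dusp6 by 1.63 and 1.34 (adjusted p = 1.28e-07 and 1.49e-06). The median change of the 13 genes was -1.19 in EN and -0.71 in AN, against 0.04 and 0.03 over all tested probes. Between the roots at 5 W, Dusp8 and Dusp16, phosphatases of stress-activated kinases, were higher in AN, by 1.30 and 1.35 (adjusted p = 0.000735 and 0.00378), and none was lower. Of the 7 other AP-1 genes tested, Jdp2, a dimerization partner and repressor, was the 1 gene called at 5 W against P0, with rises of 1.76 in EN and 1.47 in AN (adjusted p = 5.25e-05 and 0.000353). Jun itself was called in no comparison. Of 11 upstream regulators, Nab2, a corepressor of the Egr proteins, rose by 1.44 in EN and 1.73 in AN at 5 W (adjusted p = 9.17e-06 and 9.89e-07), and Elk3, an Ets factor that works with serum response factor, fell by 1.26 in AN (adjusted p = 1.67e-06).

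From P0 to 5 W other genes of nerve injury fell or were not called. Of 12 tested genes that rise in injured sensory neurons, none rose and 6 fell from P0 to 5 W in EN, and none rose and 4 fell in AN (29.9% and 27.8% of all tested probes). The sensory neuron markers fell over the same ages, 7 of 8 in EN (median -4.31) and 4 of 8 in AN (median -2.64), and their part in the fall of the injury genes was not tested. With slide as a block 7 injury genes fell in EN, and 3 fell and 1 rose in AN. Sox11, a developmental transcription factor, had changes of -5.47 and -4.39 (adjusted p = 5.74e-08 and 9.09e-07) and Gap43, a growth cone protein, of -4.77 and -3.16 (adjusted p = 7.7e-06 and 0.000605). Npy and Adcyap1, which encode neuropeptides, and Ecel1, an injury-induced peptidase, were higher in AN than in EN at 5 W by 4.73, 3.8 and 3.40 (adjusted p = 8.83e-05, 0.00261 and 0.00077). Of the 8 sensory neuron markers, 7 were called higher in AN at 1 W, 2 at 3 W and 1 at 5 W. Of 10 tested genes of repair Schwann cells, none rose and 5 fell from P0 to 5 W in EN, and none rose and 3 fell in AN (29.9% and 27.8% of all tested probes), so that the AN count is near that share. The precursor gene Sox2 fell by 2.57 and 1.38 (adjusted p = 8.82e-10 and 2.5e-06). Of 10 heat shock genes, which respond to stress and handling, Hspa1b and Hspa1a rose from P0 to 5 W in EN by 1.83 and 1.41 (adjusted p = 0.0373 and 0.0335), and none was called in AN (29.9% and 27.8% of all tested probes). In AN Hspa1b read 8.21, 8.22 and 11.86 at P0 and 11.21, 10.67 and 10.34 at 5 W. Hspa1a there read 9.76, 10.13 and 12.76 at P0 and 12.18, 12.25 and 11.85 at 5 W. Replicate 3 was the highest at P0 in both roots. With slide as a block 1 heat shock gene rose in EN, and 0 were called in AN. From 1 W to 3 W 4 heat shock genes rose in EN and 3 in AN (11.7% and 12.6% of all tested probes). With slide as a block 1 and 3 rose (9.14% and 11.2%). Without the block Hspa1b rose by 2.56 and 2.19 (adjusted p = 0.0125 and 0.0269).

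Over the 24 arrays, the courses most like that of Fos outside the set were those of an unnamed Ensembl transcript, AK016486, Eif2s3x, Tsen34 and Asxl2, with r of 0.74, 0.71, 0.70, 0.70 and 0.69, while within the set Fosb reached 0.91. Those most like Atf3 were Adgrg1 (0.83), BC034090 (0.82), Abca8a (0.82), C530008M17Rik (0.80) and Sox6 (0.80), and those most like Jund were Crocc (0.78), Srpk3 (0.73), Erbb2 (0.71), Rhbdf2 (0.71) and AK132852 (0.71). These values describe likeness over arrays that share groups and slides.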

How the data were processed

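Cyanine-3 labelled cRNA of each of the 24 samples was hybridized to an Agilent mouse array (8 × 60K). The authors deposited each array's fluorescence intensity from Agilent Feature Extraction 10.7.1.1 and a table in log2 units, quantile normalized in GeneSpring per their methods, which was used here. Its 24 columns matched their own arrays best (r of 0.996 to 1.00, at most 0.991 with another). Arrays had 55.1% to 71.7% of gene spots well above background and a median signal of 45.4 to 191 over a local background of 23 to 46. The number of arrays limits the precision. The array annotation gives probe positions in mm9, not used with GRCm38.p6.

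The 8 group means were fitted with limma 3.58.1 (R 4.3.3) on 36409 probes, those that every array of some group marked as well above background. All p values are two-sided. The study's methods give p below 0.05 and a fold change above 2 without stating an adjustment, and unadjusted p was an alternative. On simulated data the fit was tested before use. The members and gene lists were chosen with earlier results of these data known. Besides the members, the text names the 5 genes most like Fos, Atf3 and Jund and, per list, the called genes of largest change. Alternatives were scanner signal with quantile, 75th percentile or normexp scaling, other filters, array weights, blocks, other probes and each array left out. The replicate block within an age and the slide block for the gene lists were chosen after seeing the data. Slides and scans were numbered here from the scanner files (4 slides, 3 scans).

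Replicate numbers were checked for pairing. Deviations of AN and EN arrays of the same age and number correlated over the tested probes in all 12 pairs (r of 0.11 to 0.65). Those of different number gave -0.47 to 0.12. Both arrays of each pair lay on the same slide. At 3 W, where all arrays shared a slide, r was 0.18, 0.11 and 0.21 for the same number. Different numbers at that age gave -0.28 to 0.12. At P0 replicates 2 and 3 shared a slide, with r of 0.44 and 0.43 for the same number. Between those replicates r was -0.04 and -0.22. Whether the numbers pair AN and EN apart from the slide was not tested. Across ages the same number gave -0.35 to 0.38.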

Additional observations from a re-analysis of the deposited data

Results flagged for a closer look

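For 4 genes outside the set, from the lists of related genes, the difference between the roots changed with age by a test of the change itself (limma, adjusted over all tested probes). From P0 to 5 W the AN-EN difference rose by 1.64 (log2) for Dusp8 (adjusted p = 0.00947), by 2.06 for Dusp16 (adjusted p = 0.0103), by 3.28 for Ecel1 (adjusted p = 0.0449) and by 1.19 for Sox2 (adjusted p = 0.0215). Against P0, Dusp8 and Dusp16 fell by 1.62 and 1.53 in EN at 5 W (adjusted p = 3.02e-06 and 7.58e-05) and were not called in AN. For the members of the set themselves, no such change was called.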

How the results depend on the processing

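Directions and calls were recomputed under 13 further settings and with each of the 24 arrays left out. The replicate block changed no count of called genes, and 1 gene, Atf3, was called in AN against EN at 5 W with it, as with the replicate block within an age. With AN and EN arrays of a pair as a random block, 1 gene was called in AN against EN at 1 W. The 75th percentile scaling called 1 at 3 W and gained Dusp1 in EN at 5 W against P0 (1.06, adjusted p = 0.00936 by limma). Normexp correction called 0 in AN against EN at 5 W, and so did a fit of the compared groups alone, which called 2 at 3 W in EN, 0 at 1 W in AN and 2 at 3 W in AN against P0. Array weights called 1 in AN against EN at 1 W and 1 at 3 W, and 2 at 1 W and 2 at 3 W in AN against P0. They also gained Fosb (1.78) and lost Fosl2 (0.97) in EN at 5 W against P0, and lost Dusp1 from 1 W to 3 W in AN (0.76). Slide as a block called 1 at 5 W in EN against P0, with Fosl2 lost, 2 at 3 W and 3 at 5 W in AN, with Ier2 gained at both, and 1 at 3 W in EN, Ier2 in place of Fosl2. It called 1 from 1 W to 3 W in both roots together, a fall of Atf3 in EN, with all 4 earlier calls lost. Unadjusted p called 1 in AN against EN at 1 W and 2 in AN at 1 W against P0, and gained Fosb in EN at 5 W against P0 (1.44, unadjusted p = 0.0406 by limma). The other probes called 2 in EN at 3 W, with Junb gained on a probe above background on none of the EN arrays at P0. On the same probe Junb was gained in AN at 5 W against P0 (adjusted p = 0.017 by limma), with 1 AN array at P0 above background.

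With 1 array left out, calls ranged from 0 to 1 in AN against EN at 3 W and 0 to 2 at 5 W, from 1 to 2 and 1 to 5 in EN at 1 W and 5 W against P0 (1 throughout at 3 W), from 0 to 2, 1 to 2 and 2 to 4 in AN, and from 3 to 5 between 1 W and 3 W. The highest, 5 in EN at 5 W, came without EN replicate 2, and the 4 in AN without AN replicate 2. The sign of small, uncalled changes turned for Ier2 on its other probe (0.67 in EN and 0.95 in AN at 3 W, 0.12 in AN at 5 W, against P0), with array weights (0.0062 in AN at 3 W) and for Junb in EN at 3 W with slide as a block (-0.018). With 1 array left out it turned for Ier2 within -0.23 to 0.10, -0.40 to 0.14 and -0.89 to 0.15, and for Fos from 3 W to 5 W in EN within -0.045 to 2.20. Beyond the construction of each setting, the cause was not tested.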
